A study of Mus musculus with 14 samples.

Results

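The genes Taf7l, Brdt, Tcfl5, Sohlh2, Zfp541, Tex101, Tcf24 and Btbd18 were followed through 5 days of mouse primordial germ cell development. They are 8 of the 18194 genes measured, and each is represented by the probe set of highest mean among those annotated with its symbol alone. The genes were chosen by their measured signal on these arrays, which was much higher late than early in females, in males or in both. Their late rise is therefore described here without a test, and only comparisons other than the late rise are tested. The products act on transcription or chromatin or, for Tcf24, are predicted to, with the exception of Tex101, which encodes a glycoprotein of the germ cell surface.

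Primordial germ cells are the embryonic precursors of eggs and sperm. They were profiled on 14 Affymetrix arrays, 2 biological replicates in each of 7 groups, at embryonic day (E) 9.5, E10.5 and E11.5, and in males and females at E12.5 and E13.5. From E10.5 on, embryos came from BDF1 females mated with males of a mixed B6/CBA background that carried the stella-EGFP transgene, and the germ cells were sorted from genital ridges on its fluorescence. The transgene was thus common to all groups from E10.5 to E13.5. The E9.5 cells were labelled C57BL/6, came from an earlier study, carry no transgene in their labels and have no sort described in the sources used here. Their cDNA was amplified with 22 PCR cycles, against 12 cycles for the others, each from 5 ng of total RNA (the equivalent of 500 cells). Cells up to E11.5 were not sexed.

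Each germ line has a set of transcription and chromatin proteins that body cells lack or replace by a related form. In mice, TAF7L takes the place of the general subunit TAF7 in the TFIID complex of male germ cells, and BRDT reads acetylated histones in spermatocytes and spermatids. SOHLH2 is a basic helix-loop-helix (bHLH) factor of spermatogonia and of young oocytes, and TCFL5 is a bHLH factor that spermatocytes need. ZFP541 works with KCTD19 and histone deacetylases in male meiotic prophase, and BTBD18 is needed for transcription of piRNA precursor loci in spermatocytes. TCF24 is a predicted bHLH factor of little known role. In the mouse embryo, female germ cells enter meiosis at about the ages studied here, while male germ cells do not until after birth.

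Signals are log2 values as deposited, and dim stands for a level under the table's median, 4.72. Array medians lay between 4.66 and 4.80, and the correlation between replicates across genes lay between 0.961 and 0.981. Germ cell markers were present in all groups, though not at constant levels. Of 5 measured (Dppa3, Pou5f1, Ddx4, Dazl and Kit), 5 were above 4.72 on every array from E10.5 and at least 4 at E9.5. Dazl averaged 4.71 at E9.5, 9.07 at E10.5 and 12.08 at E11.5, and Ddx4 9.10, 10.76 and 11.83. Dppa3, Pou5f1 and Kit changed far less. Precision was limited by having 2 arrays in a group. In bulk RNA, fewer cells with a transcript and less transcript per cell cannot be told apart. Gapdh signal at the 3' end minus that at the 5' end, which grows as RNA degrades or cDNA shortens, was 3.16 in E13.5 male replicate 2 and 3.09 in E13.5 female replicate 2, and at most 2.53 on the other arrays.

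Promoter windows were taken from RefSeq (assembly GRCm38.p6, 250 bases before to 50 after the start site). They were found for 7 of the 8 genes, all but Tcf24. Of these, 5 are shown because they hold CACGTG or CNCCTCAG or stand apart in base composition. Taf7l and Brdt each hold the palindromic E-box CACGTG, which MAX and its partners bind. Tcfl5 and Sohlh2 each hold the motif CNCCTCAG (in Tcfl5 on the opposite strand), which was described for STRA8. The Zfp541 window holds neither. Sequences run 5′ to 3′ on the strand of the gene, and capitals mark these motifs.
Taf7l, chrX:134476441-134476740, minus strand: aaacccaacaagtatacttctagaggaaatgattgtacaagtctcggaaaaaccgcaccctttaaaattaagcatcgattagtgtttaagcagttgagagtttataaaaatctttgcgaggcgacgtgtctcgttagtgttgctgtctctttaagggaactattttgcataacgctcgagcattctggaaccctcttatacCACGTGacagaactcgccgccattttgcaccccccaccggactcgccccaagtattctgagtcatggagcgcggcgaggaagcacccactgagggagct
Brdt, chr5:107330944-107331243, plus strand: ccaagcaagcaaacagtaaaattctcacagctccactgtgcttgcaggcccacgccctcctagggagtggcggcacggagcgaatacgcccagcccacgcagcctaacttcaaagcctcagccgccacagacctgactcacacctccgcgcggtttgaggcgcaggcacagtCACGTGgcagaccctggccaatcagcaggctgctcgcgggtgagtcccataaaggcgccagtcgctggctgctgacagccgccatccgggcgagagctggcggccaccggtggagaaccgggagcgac
Tcfl5, chr2:180642642-180642941, minus strand: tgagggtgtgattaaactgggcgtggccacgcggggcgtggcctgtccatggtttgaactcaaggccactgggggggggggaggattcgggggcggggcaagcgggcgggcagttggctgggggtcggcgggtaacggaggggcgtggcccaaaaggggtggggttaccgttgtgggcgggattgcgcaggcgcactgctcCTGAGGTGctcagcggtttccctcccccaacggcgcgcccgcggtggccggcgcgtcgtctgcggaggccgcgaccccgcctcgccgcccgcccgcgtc
Sohlh2, chr3:55181794-55182093, plus strand: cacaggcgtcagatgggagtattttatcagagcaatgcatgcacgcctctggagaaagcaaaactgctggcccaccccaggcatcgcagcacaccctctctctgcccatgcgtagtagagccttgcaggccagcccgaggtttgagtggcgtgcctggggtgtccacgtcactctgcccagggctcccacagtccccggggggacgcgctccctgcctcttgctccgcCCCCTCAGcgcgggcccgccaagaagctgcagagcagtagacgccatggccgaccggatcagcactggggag
Zfp541, chr7:16071595-16071894, plus strand: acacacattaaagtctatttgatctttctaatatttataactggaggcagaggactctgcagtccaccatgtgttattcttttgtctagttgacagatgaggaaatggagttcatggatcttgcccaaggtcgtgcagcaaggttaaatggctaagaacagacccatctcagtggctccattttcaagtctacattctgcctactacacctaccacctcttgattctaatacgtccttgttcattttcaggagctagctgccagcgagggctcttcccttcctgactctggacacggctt
The first base of CACGTG lies at position -49 from the start site in Taf7l and -78 in Brdt, and that of CNCCTCAG at -49 in Tcfl5 and -22 in Sohlh2. Searched on both strands, CACGTG occurs in 7.15% of the 32851 RefSeq promoter windows of this length and CNCCTCAG in 7.94%. The MYB motif TAACNG, found in 23.3% of windows, occurred in Tcfl5 and Zfp541. The E2F motif GCGGGAAA, found in 1.07%, occurred in none of the 7. CG dinucleotides, the sites of DNA methylation, numbered 17 in Taf7l, 23 in Brdt, 35 in Tcfl5, 17 in Sohlh2, 19 in Tex101 and 23 in Btbd18, and 4 in Zfp541. The median over all windows was 7, so 6 of the 7 genes lay above it and Zfp541 below. A match is a description of these letters and no evidence of binding.

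**Figure D1:**
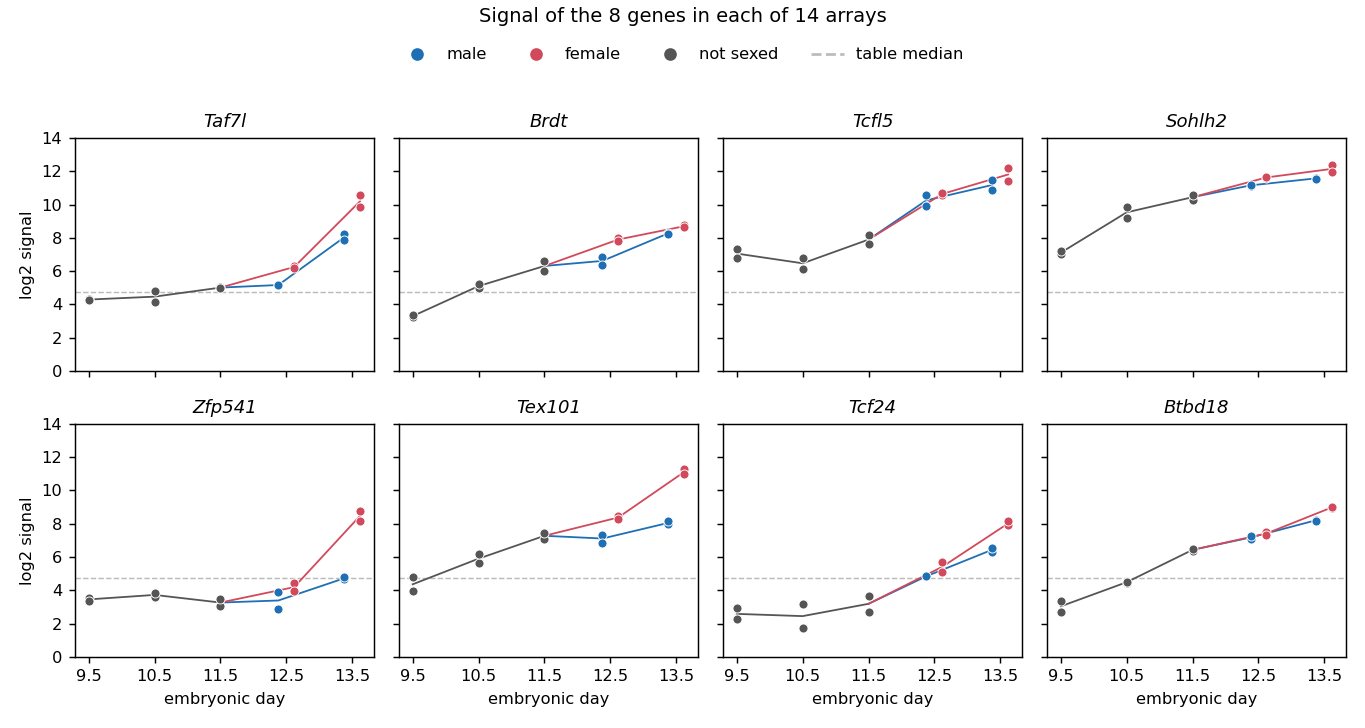
Log2 signal (vertical axis) of the 8 genes by embryonic day (horizontal axis) in each of the 14 arrays. Points are single arrays (blue male, red female, grey not sexed), lines join group means, and the dashed line is the table median of 4.72. Zfp541 stays near or below that line except in E13.5 females (8.77 and 8.18), while Sohlh2 reads 7.0 or more from E9.5 on.

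Of the bHLH genes, Sohlh2 had signal well above the median at all ages. Its values were 7.0 and 7.21 at E9.5, 9.21 and 9.85 at E10.5, and 10.30 and 10.58 at E11.5. In males the values were 11.10 and 11.20 at E12.5 and 11.60 and 11.55 at E13.5, and in females 11.62 and 11.63 at E12.5 and 12.35 and 11.94 at E13.5. Both arrays of each age up to E12.5 lay above both of the age before. By group means, 44.5% of its log2 rise from E10.5 to E13.5 in males, and 34.8% in females, was present at E11.5, before the sexes were separated.

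Tcfl5 was above the median at all ages, and its largest step was from E11.5 to E12.5 in both sexes. It read 7.32 and 6.78 at E9.5, 6.80 and 6.13 at E10.5, and 8.14 and 7.64 at E11.5. Males then read 9.91 and 10.60 at E12.5 and 11.47 and 10.88 at E13.5, and females had 10.57 and 10.70 at E12.5 and 12.20 and 11.41 at E13.5. The sexes overlapped at both ages. The step from E11.5 to E12.5 was 2.37 in males and 2.75 in females (log2), 50.2% and 51.4% of the rise from E10.5 to E13.5.

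Tcf24, in contrast, was dim until E11.5. It read 2.91 and 2.25 at E9.5, 1.72 and 3.17 at E10.5, and 2.72 and 3.65 at E11.5. The male arrays read 4.83 and 4.86 at E12.5 and 6.31 and 6.57 at E13.5, and females had 5.10 and 5.72 at E12.5 and 7.90 and 8.14 at E13.5. The unsexed groups overlapped each other and lay below every later array. From E10.5 to E13.5 the group mean was 4.0 higher in males and 5.58 higher in females on the log2 scale, differences of signal from a dim level.

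Taf7l, the core transcription gene, changed little up to E12.5 in males and steeply thereafter. Its values were 4.30 and 4.27 at E9.5, 4.14 and 4.78 at E10.5, and 5.04 and 4.97 at E11.5. In males they were 5.17 and 5.15 at E12.5 and 8.21 and 7.85 at E13.5, and in females 6.30 and 6.19 at E12.5 and 10.56 and 9.83 at E13.5. The last step made up 80.4% of the male rise from E10.5 and 68.9% of the female rise, the latest timing among these genes after Zfp541. Over it the signal was higher by 2.87 (SE 0.30) in males and 3.95 (SE 0.30) in females.

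Zfp541, the chromatin factor of meiotic prophase, was dim in every group up to E12.5. It read 3.53 and 3.37 at E9.5, 3.62 and 3.82 at E10.5, and 3.07 and 3.45 at E11.5. Male samples had 2.86 and 3.91 at E12.5 and 4.65 and 4.79 at E13.5, and females had 4.43 and 3.95 at E12.5 and 8.77 and 8.18 at E13.5. E13.5 females thus stood more than 3 log2 units above every other array. The last step made up 90.1% of their rise from E10.5. E13.5 males lay around the table median, 1.34 (SE 0.39) above E12.5 males.

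Brdt, the bromodomain gene, had a higher mean at each later age in both sexes. It read 3.21 and 3.37 at E9.5, 4.98 and 5.21 at E10.5, and 6.01 and 6.60 at E11.5. In males it reached 6.86 and 6.36 at E12.5 and 8.29 and 8.25 at E13.5, and in females 8.01 and 7.78 at E12.5 and 8.76 and 8.63 at E13.5. The step to E12.5 was 0.31 in males and 1.59 in females, and the step from there to E13.5 was 1.66 in males and 0.80 in females. At E13.5 the means were 8.27 ± 0.03 in males and 8.70 ± 0.09 in females (SD, n = 2 each).

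Brdt has 3 probe sets, and the values above are from the one with the highest mean. The second read 5.74 and 6.01 in E12.5 males against 6.13 and 6.58 in E12.5 females, and 7.39 and 7.47 in E13.5 males against 8.43 and 7.72 in E13.5 females. Its group means were also lowest at E9.5 and highest in E13.5 females. At E11.5 this second probe set read 5.58 and 4.47. By group means its larger step in females was from E12.5 to E13.5, unlike in the first probe set. The third was dim on all 14 arrays and lay between 0 and 3.74.

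Btbd18, of the piRNA precursor loci, gained early and at every step in both sexes. Its values were 2.71 and 3.36 at E9.5, 4.46 and 4.51 at E10.5, and 6.37 and 6.49 at E11.5. Arrays of males read 7.09 and 7.25 at E12.5 and 8.24 and 8.19 at E13.5, and females had 7.50 and 7.32 at E12.5 and 8.97 and 9.01 at E13.5. Replicates differed by at most 0.18 from E10.5 on, and each age lay wholly above the age before. By E11.5 it had made 52.1% of the male rise from E10.5 and 43.2% of the female rise.

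Tex101, the surface glycoprotein, split by sex. It read 4.79 and 3.93 at E9.5, 5.65 and 6.15 at E10.5, and 7.10 and 7.45 at E11.5. In male cells it read 7.35 and 6.87 at E12.5 and 7.96 and 8.14 at E13.5, and in females 8.44 and 8.31 at E12.5 and 11.26 and 10.96 at E13.5. E12.5 males overlapped E11.5, and E13.5 males still lay below E12.5 females. In males 64.0% of the rise from E10.5 was present at E11.5, in females 26.4%.

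**Figure D2:**
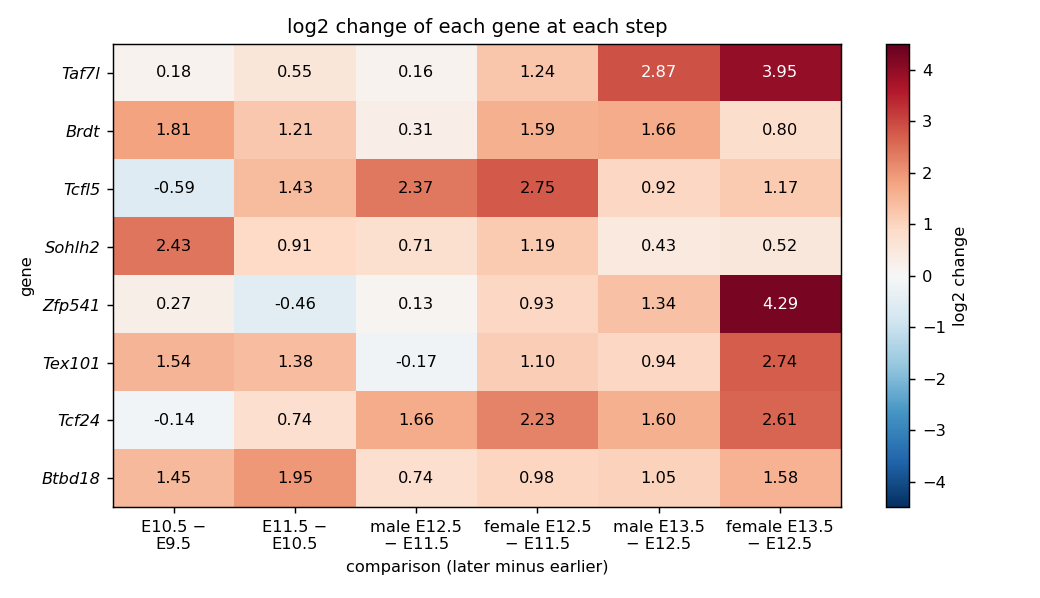
Log2 change (colour and printed value) of each gene (rows) at each step (columns), later minus earlier group mean. Sohlh2 has its largest value at E10.5 minus E9.5 (2.43), Tcfl5 at E12.5 minus E11.5 in both sexes (2.37 in males and 2.75 in females), and Taf7l and Zfp541 at E13.5 minus E12.5 in females (3.95 and 4.29).

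Across these steps all 8 genes had both E13.5 arrays above both E12.5 arrays of the same sex, in males and in females. So did 27.9% of all 18194 genes in males and 26.8% in females. For E12.5 against E11.5, 5 of the 8 genes were higher with no overlap in males and 8 were in females, as were 19.9% and 26.3% of all genes. These are the steps the genes were picked for, and nothing is read from the counts. By the limma test, at an adjusted p under 0.05, 1.36% of all genes passed as higher at E13.5 than at E12.5 in males and 1.31% in females, and 0.330% and 1.41% did for E12.5 against E11.5. Both E12.5 comparisons share the E11.5 arrays. The change of the sex difference between the ages, male minus female at E13.5 minus the same at E12.5, was -2.95 (95% interval -4.17 to -1.73) for Zfp541, -1.80 (-2.60 to -0.99) for Tex101, -1.08 (-2.02 to -0.14) for Taf7l and 0.86 (0.04 to 1.68) for Brdt. It was -0.25 (-1.36 to 0.86) for Tcfl5, -0.095 (-0.80 to 0.61) for Sohlh2, -1.02 (-2.48 to 0.45) for Tcf24 and -0.54 (-1.15 to 0.08) for Btbd18. The intervals are not adjusted for the number of genes. The Brdt value is from its probe set of highest mean. By group means, the second Brdt probe set had the wider sex gap at E13.5. All 8 values come from the steps that picked the genes and carry no test.

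The earliest comparison set E10.5 against E9.5. Sohlh2, Brdt, Btbd18 and Tex101 were higher at E10.5. Sohlh2 averaged 9.53 ± 0.45 at E10.5 and 7.11 ± 0.15 at E9.5 (SD, n = 2 each), a log2 change of 2.43 (SE 0.22, limma adjusted p = 0.00121). Brdt was higher by 1.81 (SE 0.26, limma adjusted p = 0.00883), from a dim level. Btbd18 was higher by 1.45 (SE 0.24, limma adjusted p = 0.0166), with both groups dim. Tex101 was higher by 1.54 (SE 0.31, limma adjusted p = 0.0407), from a dim level. So 4 of 8 genes passed, where 0.715% of all genes passed as higher and 1.06% in either direction. The genes were chosen as much higher late than early, so low values on the early arrays could enter the choice. These p-values may thus not be independent of it, and nothing is read from this count. Taf7l (0.18), Zfp541 (0.27), Tcf24 (-0.14) and Tcfl5 (-0.59, 95% interval -1.37 to 0.20) did not pass.

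The E9.5 arrays differ from the others in study, strain, RNA kit and PCR cycles as well as age, and age and these differences cannot be told apart. The hybridization control bioB (5' probe set) read 4.54 to 4.95 on the arrays from E10.5 on and 7.84 to 7.98 at E9.5. The log2 of the summed signal of 3 blood markers was 11.25 to 11.68 at E10.5 and 13.67 to 14.57 at E9.5, and that of 5 germ cell markers 14.62 to 14.70 at E10.5 and 14.26 to 14.60 at E9.5. Their part in these changes was not tested. Sohlh2 kept its call without any one of the 4 arrays compared. Brdt and Btbd18 lost theirs without E9.5 replicate 1 or E10.5 replicate 2, and Tex101 without E9.5 replicate 2 or E10.5 replicate 2. The count was 1 of 8 without E10.5 replicate 2 and 2 of 8 without E9.5 replicate 1. Tex101 also lost its call with the replicate number as a block, which left 3 of 8, and without any one array of another group. Brdt lost its call with the mean of its 3 probe sets (0.71).

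From E10.5 to E11.5 Btbd18 alone passed. It averaged 6.43 ± 0.08 at E11.5 and 4.49 ± 0.04 at E10.5 (SD, n = 2 each), 3.85-fold higher by signal (log2 change 1.95, SE 0.20, limma adjusted p = 0.00878), from a dim level. Over all genes 0.0440% passed as higher and 0.0769% in either direction, and 7.07% had an unadjusted p under 0.05. Tcfl5 was higher by 1.43 (95% interval 0.64 to 2.21), Tex101 by 1.38 (0.81 to 1.94), Brdt by 1.21 (0.63 to 1.79) and Sohlh2 by 0.91 (0.41 to 1.41). None of these 4 passed after adjustment over all genes (limma adjusted p between 0.0937 and 0.281), and their groups did not overlap, as was so for 14.5% of all genes with the higher level at E11.5. Taf7l (0.55) and Tcf24 (0.74) did not pass, nor did Zfp541, the single gene with a lower value (-0.46). Btbd18 lost its call without E11.5 replicate 1 or E11.5 replicate 2, which left 0 of 8 genes passing (limma, with 1 gene of the whole table passing in each case). This comparison shares the E10.5 arrays with the one before. It also uses early arrays that could enter the choice of the genes, so its p-values may not be independent of that choice. The log2 of the summed signal of the 3 blood markers was 7.55 to 8.63 at E11.5 and 11.25 to 11.68 at E10.5. That of 3 mesenchyme markers was 6.82 to 6.88 at E11.5 and 8.84 to 9.49 at E10.5, with Col3a1 lower by -2.66 (limma adjusted p = 0.0213), a call kept without 1 of the 4 arrays compared and lost without each of the others. Their part in the change was not tested.

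Males were then compared with females at the same age, to ask which of the 8 genes separate the sexes. This is not the difference that picked the genes, but the same arrays entered their late rise, so these p-values are not independent of the choice. A rise in females alone was enough to be picked. Lower levels in males, and the counts below, thus depend in part on the choice. At E12.5 all 8 genes had a lower mean in males, with a median log2 difference of -0.69, against -0.05 over all genes. Brdt averaged 6.61 ± 0.35 in males and 7.90 ± 0.16 in females at E12.5 (SD, n = 2 each), a log2 difference of -1.29 (SE 0.26, limma adjusted p = 0.0312). Tex101 averaged 7.11 ± 0.34 in males and 8.38 ± 0.09 in females at E12.5, a difference of -1.27 (SE 0.26, limma adjusted p = 0.0305). These 2 of 8 passed, where 1.73% of all genes passed as lower in males and 2.39% in either direction. Leaving out any of the 4 arrays compared, or either E13.5 male array, ended both calls, as did quantile normalization. Without either E13.5 female array 1 of the 2 passed.

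At E12.5 the remaining genes did not pass. Taf7l differed by -1.09 (95% interval -1.75 to -0.42, limma adjusted p = 0.107), with no overlap between the sexes, as was so for 28.9% of all genes lower in males. Zfp541 differed by -0.81 (-1.67 to 0.06) and Tcf24 by -0.57 (-1.60 to 0.47). The intervals were -0.97 to 0.02 for Sohlh2, -1.17 to 0.41 for Tcfl5 and -0.67 to 0.19 for Btbd18. With the mean of its 3 probe sets Brdt differed by -0.74 and did not pass.

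By group means, the gap at E13.5 was wider than at E12.5 for every gene but Brdt, read from its probe set of highest mean. In the second Brdt probe set the gap was wider at E13.5 too. Across the 8 genes the E13.5 gap was widest for Zfp541, Tex101 and Taf7l. Zfp541 averaged 4.72 ± 0.10 in males and 8.48 ± 0.42 in females at E13.5 (SD, n = 2 each), a log2 difference of -3.76 (SE 0.39, limma adjusted p = 0.000240). Tex101 averaged 8.05 ± 0.13 in males and 11.11 ± 0.21 in females at E13.5, a difference of -3.06 (SE 0.26, limma adjusted p = 6.67e-05). Taf7l averaged 8.03 ± 0.25 in males and 10.20 ± 0.52 in females at E13.5, a difference of -2.17 (SE 0.30, limma adjusted p = 0.00117). All 3 held when each of the 4 arrays compared was left out in turn. Without both arrays of high Gapdh difference, an alternative chosen after seeing the data, they differed by -4.12, -3.30 and -2.35 and still passed.

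Btbd18, at 8.22 ± 0.04 in males and 8.99 ± 0.03 in females at E13.5, also passed (log2 difference -0.78, SE 0.20, limma adjusted p = 0.0303). It lost its call without any one of the 4 arrays, with median centring, and without both arrays of high Gapdh difference. In all, 4 of 8 passed as lower in males, where 6.00% of all genes did, and 10.2% in either direction. The E13.5 arrays entered the rise that picked the genes, and a rise in females alone was enough. Nothing is read from this count. Tcf24 differed by -1.58 (95% interval -2.62 to -0.54) and just missed (limma adjusted p = 0.0595), and it passed with the replicate number as a block. For Brdt (-0.43, interval -1.01 to 0.16) and Tcfl5 (-0.63, -1.42 to 0.16) the interval included 0, and Sohlh2 (-0.57, -1.07 to -0.07) did not pass after adjustment (limma adjusted p = 0.157). All 8 genes again had the lower mean in males, which depends in part on the choice.

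Taf7l is the X-linked gene of the group. The median male minus female difference of 397 X-linked genes with a mean of at least 4.72, Taf7l among them, was -0.38 at E12.5 and -0.44 at E13.5, against -0.05 and -0.02 for 11677 autosomal genes. The Taf7l difference was larger at both ages, and the part of the X chromosome in it was not tested. The summed signal of markers of gonadal somatic cells also differed between the sexes. The log2 of the summed signal of 10 supporting and steroidogenic cell markers was 8.97 to 9.22 in males and 8.47 to 8.54 in females at E12.5, and 9.69 to 9.96 in males and 8.32 to 8.60 in females at E13.5. Of these 10 markers only Cst9 passed, higher in males by 4.90 at E12.5 (kept without 2 of the 4 arrays compared) and 6.44 at E13.5 (kept without each). Most of the gap in the summed signal came from Cst9 at both ages. The other markers did not all go the same way, and Star had the lower mean in males at both ages. The median male minus female difference of the 10 was 0.24 at E12.5 and 0.555 at E13.5, against -0.045 and -0.02 over all genes. By the limma test, 1 of the 10 at E12.5 and 4 at E13.5 had an unadjusted p under 0.05. Sox9, a defining gene of male supporting cells, was dim in both sexes (at most 3.59), and no marker of the list read 0. Their part in the sex differences was not tested.

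**Figure D3:**
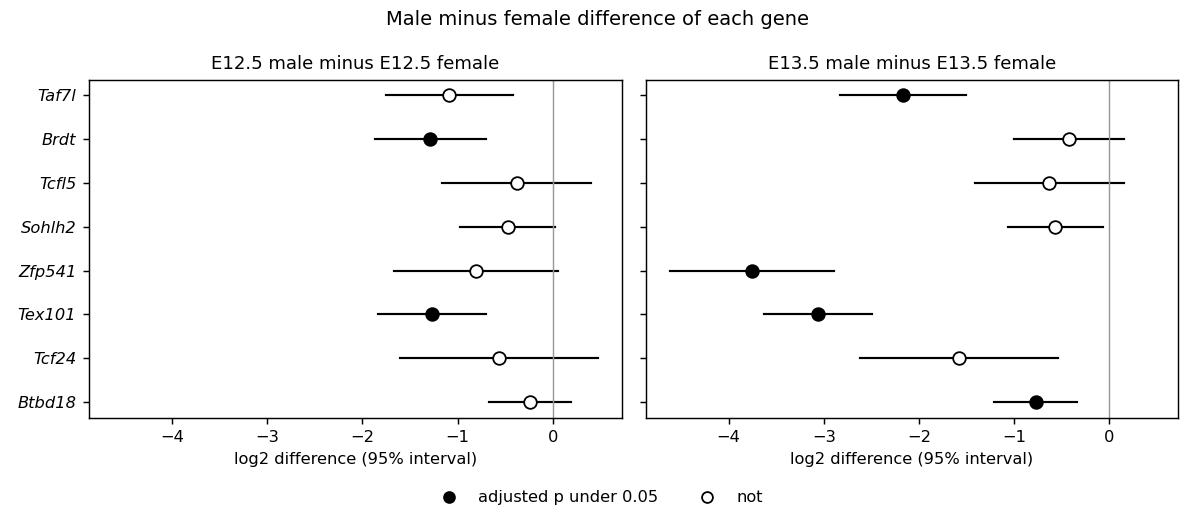
Male minus female log2 difference (horizontal axis) of each gene (vertical axis) at E12.5 and at E13.5, with 95% intervals from the limma fit of 12 arrays. Filled points have an adjusted p under 0.05 over all genes. All values are negative, from -0.24 to -1.29 at E12.5 and from -0.43 to -3.76 at E13.5.

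Relatives of Taf7l were read from a list of TFIID and TBP family genes. Of 21 measured, 1 gene, Taf7l2, passed in 3 of the 4 sexed steps, and the other 20 in none of them. Taf7l2, a TAF7-like gene that RefSeq places on chromosome 10, read 2.33 and 2.13 at E9.5, 4.14 and 4.95 at E10.5, and 4.43 and 4.88 at E11.5. Males had 5.35 and 5.44 at E12.5 and 7.19 and 7.04 at E13.5, and females had 6.57 and 6.51 at E12.5 and 8.62 and 8.05 at E13.5. Like Taf7l it was lower in males at E13.5, by -1.22 (SE 0.31, limma adjusted p = 0.0331). It was higher at E10.5 than at E9.5 by 2.32 (limma adjusted p = 0.00657), where Taf7l was not called. The E10.5 call held in 3 of the 4 fits that each left out 1 of the arrays compared. The E13.5 sex call and the 3 calls in sexed steps held in 0 of 4, while the E13.5 sex call of Taf7l held in 4 of 4. Whether the 2 probe sets share sequence was not tested.

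The general subunit Taf7 ran between 8.51 and 10.16 on all arrays and was not called in any comparison. Taf1, the largest TFIID subunit, lay between 8.61 and 10.54, Tbp between 9.05 and 10.46, and Tbpl1, a TBP relative needed for sperm formation, between 9.84 and 11.02. Taf4b, a subunit of germ cells and the ovary, lay between 8.87 and 10.52. In the E13.5 sex comparison, the one in which 2 of the 21 passed, Gtf2b, a general initiation factor, was higher in males by 1.03 (limma adjusted p = 0.0161) beside the lower Taf7l2, a call that held in 1 of 4 such fits. The median change of the list was 0.15 in males and 0.08 in females for E13.5 against E12.5, near the 0.05 and 0.03 of all genes.

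**Figure D4:**
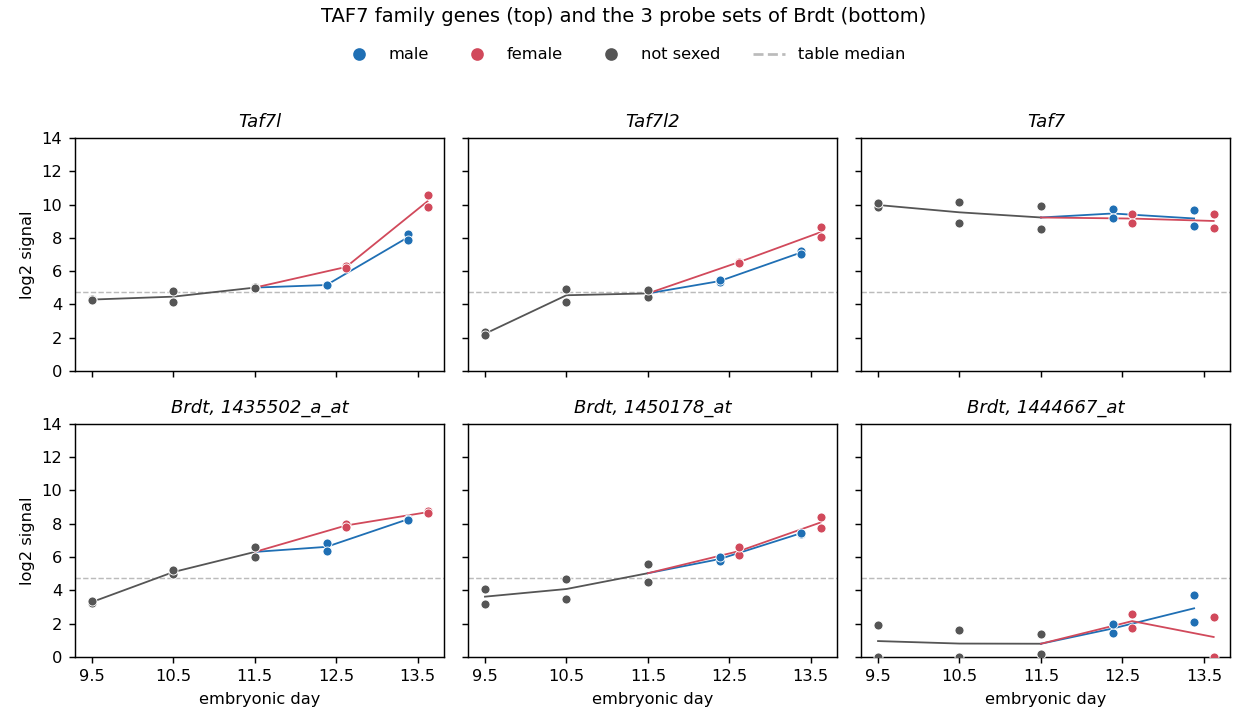
Log2 signal (vertical axis) by embryonic day (horizontal axis) of Taf7l, Taf7l2 and Taf7 (top) and of the 3 probe sets of Brdt (bottom, the one used at left), with points for single arrays and lines for group means. Taf7l and Taf7l2 are highest in E13.5 females (10.56 and 9.83, and 8.62 and 8.05), and Taf7 lies between 8.51 and 10.16 at all ages.

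The BET genes related to Brdt, which encode bromodomain proteins present in most cells, were read from a list. Brd2 lay between 7.96 and 10.04 and Brd3 between 8.60 and 9.77. Among 7 measured acetyl-histone readers none passed in any of the 9 comparisons with limma, and 3 of 63 gene and comparison pairs had an unadjusted p under 0.05. Among partners of Zfp541, Hdac1 lay between 11.96 and 12.72 and Hdac2 between 11.75 and 12.87. Of 6 measured, 1 passed, in 1 comparison: Dnttip1, which binds deacetylases, read 9.59 and 10.01 in males and 10.51 and 10.89 in females at E13.5 (log2 difference -0.90, limma adjusted p = 0.0202), which held in 2 of the 4 fits that left out 1 array compared. Kctd19 was not analysed here.

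The wider list of germ line transcription regulators held 18 measured genes. For E13.5 against E12.5, none passed in males by the limma test (2 at an unadjusted p under 0.05), and 1 rose and 1 fell in females. Figla, an oocyte bHLH factor, rose by 1.80 in females (limma adjusted p = 0.0125) and was lower in males at E13.5 by -2.40 (limma adjusted p = 0.000286), with 5.74 and 5.97 in males and 8.15 and 8.36 in females at E13.5. Sohlh1, the partner of Sohlh2, lay between 3.63 and 5.06 on all arrays, around or below the table median. Mybl1, a master regulator of pachytene piRNA loci, was dim except in E13.5 females (5.32 and 4.72), and was not called. At E12.5 against E11.5, none of the 18 passed in males (limma, 3 at an unadjusted p under 0.05), and 4 rose in females (Stra8, Zglp1, Dmrt1 and Id4). At E13.5, 1 was higher in males (Etv5) and 4 were lower (Stra8, Figla, Zglp1 and Dmrtb1). Leaving out 1 array compared at a time, the E13.5 sex calls held in 4 of 4 fits, other than Dmrtb1 (1 of 4). Of the calls over time in females, Stra8 and Zglp1 held in 3 of 4, Dmrt1 in 1, and Id4 and both E13.5 calls (Figla and Etv5) in 0.

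Among 12 bHLH relatives of Tcf24 and Tcfl5, 1 was higher in males and 3 lower at E12.5, and 2 were higher and 4 lower at E13.5. The lower ones were the inhibitors Id1, Id2 and Id3 at both ages, with Scx added at E13.5. Msc, a repressor of the same subfamily as Tcf24, had a difference of the opposite sign to that of Tcf24. It read 8.39 and 8.04 in males and 4.17 and 4.20 in females at E13.5, higher in males by 4.03 (limma adjusted p = 8.32e-05). It also fell at each step in females, by 2.08 to E12.5 and 1.86 to E13.5. Leaving out 1 array compared at a time, both of these falls held in 1 of 4 fits. At E12.5 the sex calls of Id1 and Id3 held in 4 of 4 and those of Id2 and Msc in 1. At E13.5 those of Id1, Id2, Id3 and Msc held in 4, that of Scx in 3 and that of Tcf4 in 1. Tcf21 lay between 4.18 and 6.32 and Tcf23 was dim throughout, between 0.91 and 2.92.

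Of 9 measured genes of the Ly6 family and TEX101 partners, Lypd4, a TEX101 relative of sperm, was lower in males at E13.5 by -2.98 (limma adjusted p = 0.000394). It read 2.64 and 2.53 in males, and 5.69 and 5.43 in females at E13.5, and fell in males by 1.64 from E12.5, within dim levels. Ly6e and Cd59a were higher in E13.5 males, by 1.37 and 1.35. These 3 sex calls held without each of the 4 arrays compared, and the fall of Lypd4 was lost without any one of them. Ly6k, whose product binds TEX101, lay between 6.48 and 7.74 and was not called.

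The list of BTB and piRNA genes set beside Btbd18 had 13 measured genes. Mael (2.59), Mov10l1 (2.21) and Piwil2 (1.94), all of the piRNA pathway, were higher at E10.5 than at E9.5, as was Btbd18, under the same limits of the E9.5 arrays. Mael and Mov10l1 also rose in females at E12.5 (1.42 and 1.2), and none of the 13 passed between the sexes by the limma test (0 at E12.5 and 3 at E13.5 at an unadjusted p under 0.05). PRC1.6, a Polycomb complex that holds germ line genes silent in other cells, had 14 measured genes. None passed over time in males, or in females but for Yaf2, which rose by 1.46 at E12.5. At E13.5 Max (0.90) and L3mbtl2 (0.62) were higher in males and Yaf2 (-1.06) lower. With 1 array compared left out at a time, Mael and Mov10l1 at E10.5 held in 4 of 4 fits and Piwil2 in 3. At E12.5 Mov10l1 held in 1 and Mael and Yaf2 in 0, and at E13.5 Max and Yaf2 held in 1 and L3mbtl2 in 0. Pcgf6 lay between 10.33 and 10.90, Mga between 7.02 and 8.12 and E2f6 between 8.40 and 10.03.

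The 8 genes were not uniform among themselves. Across the 14 arrays, which share the time course, Pearson's r between pairs ran from 0.52 (Sohlh2 and Zfp541) to 0.98 (Brdt and Btbd18). Brdt, Sohlh2 and Btbd18 were alike (0.96 to 0.98), the early and gradual genes. Taf7l was most like Tcf24 (0.93) and Zfp541 (0.91). Among 13479 other genes whose highest group mean was above 4.72, those most like each member were, over 14 arrays, Tmx4, Usp42 and Slc35f5 for Taf7l (0.98 each), Pdp1, Gtsf1 and Stk31 for Brdt (0.99, 0.98 and 0.98), and Txnrd3, Tdrd7 and Dmrt1 for Tcfl5 (0.99, 0.98 and 0.97). They were Mael, Slc25a31 and Hormad1 for Sohlh2 (0.99 each), Inca1, Spdya and Phospho2 for Zfp541 (0.98, 0.96 and 0.96), and Sycp3, Sox30 and Syce1 for Tex101 (0.97 each). For Tcf24 they were Prkd1, Stau2 and Jcad (0.99, 0.97 and 0.97), and for Btbd18 Tex12, Ccdc172 and Mael (0.99, 0.98 and 0.98). Mael thus appears beside both Sohlh2 and Btbd18. It read 5.87 and 5.44 at E9.5, 7.74 and 8.75 at E10.5, and 9.91 and 10.27 at E11.5. The males gave 10.92 and 11.00 at E12.5 and 12.04 and 11.98 at E13.5, and females had 11.65 and 11.36 at E12.5 and 12.58 and 12.34 at E13.5.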

How the data were processed

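The deposited values are log2 probe set signals of Affymetrix arrays, which the authors normalized together over all 14 arrays, per the series' design text. On background correction, summarization and software, nothing is given in the sources used here. Per the labels' protocols, biotin-labelled cRNA was made from PCR-amplified cDNA. The log2 scale was read from the values (0 to 14.04). Of 45101 probe sets, 34958 had a single symbol in the platform annotation, 932 had several and 9211 none, and the last kinds were left out. Symbols were updated through Entrez identifiers to RefSeq for 34754 probe sets. Each of 18194 genes was represented by its probe set of highest mean. Between 1.54% and 1.83% of an array's values were 0.

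Group means were estimated in limma 3.58.1 (R 4.3.3), and variances were moderated with an intensity trend. The fit was checked on simulated data. E10.5 against E9.5 used all 14 arrays (7 residual degrees of freedom), and the other comparisons the 12 arrays from E10.5 (6). P-values are two-sided, adjusted by Benjamini-Hochberg over all genes within a comparison, and a gene passed under 0.05. They measure the spread between the arrays, labelled biological replicates. Named are all 8 genes, up to 4 passing genes of a list by size of change, their nearest relatives, and the 3 genes most like each. The 8 genes and the lists were chosen with earlier results of these data known. Alternatives were a filter on dim genes, quantile normalization, centring on the median, the mean of probe sets, no trend, the replicate number as a block, and each array left out.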

Additional observations from a re-analysis of the deposited data

Results flagged for a closer look

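The difference between males and females at E12.5 was tested for the 120 list genes. Both sexes were set against the same E11.5 arrays, so this difference is also the difference between the sexes' steps from E11.5. It passed for 9 of them (limma, adjusted p under 0.05), where 435 of all 18194 genes passed, 2.39%. The lists were chosen with earlier results of these data known, so nothing is read from this count. Among germ line regulators, male minus female was -5.58 for Stra8, -2.49 for Zglp1 and -2.02 for Id4. Among bHLH relatives it was -4.54 for Id1, -3.01 for Id2, -1.54 for Id3 and 1.95 for Msc. Against E11.5, Id1, Id2 and Id3 changed by -2.79, -1.18 and -1.10 in males and by 1.75, 1.83 and 0.45 in females. Of these 6 steps, 3 passed on their own (Id1 in both sexes and Id3 in males). Ly6e differed by 1.0 and the supporting cell marker Cst9 by 4.90. When each of the 4 arrays compared was left out in turn, Stra8, Zglp1, Id1 and Id3 kept the call in 4 fits, Cst9 in 2, Id4, Msc and Id2 in 1 each and Ly6e in 0. Groups of 2 arrays allowed no search for outlying arrays.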

How the results depend on the processing

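Of the 8 genes' values in the tested comparisons, 3 turned in sign, Tcf24 under 2 alternatives and Taf7l and Brdt under 1 each, none of them called. With 1 array left out, E10.5 minus E9.5 ran from -0.15 to 0.50 for Taf7l (lowest without E10.5 replicate 2) and from -0.86 to 0.59 for Tcf24, which was 0.20 without E9.5 replicate 1 and 0.59 without E10.5 replicate 1. Brdt at E13.5, male minus female, was 0.22 with the mean of its 3 probe sets, 1 of which was dim on all arrays. At E12.5, male against female, 2 of the 8 genes passed with the main setting, 0 with quantile normalization, 0 without the intensity trend and 1 with the mean of probe sets. Leaving out both arrays with a Gapdh difference above 3, chosen after seeing the data, gave 0 at E12.5, 2 for E10.5 against E9.5 (main 4) and 0 for E11.5 against E10.5 (main 1). With 1 array left out, these counts ran from 1 to 4 for E10.5 against E9.5, 0 to 1 for E11.5 against E10.5, 0 to 2 at E12.5 and 3 to 5 at E13.5.

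Counts over all genes moved more. Without the trend 120 genes passed for E10.5 against E9.5 (main 193), 79 and 125 for E12.5 males and females against E11.5 (main 183 and 338), 211 and 165 for the last step in males and females (main 381 and 341) and 279 for the sexes at E12.5 (main 435). Without both arrays of high Gapdh difference, which leaves 1 array per sex at E13.5 assumed to vary like the other groups, the same counts were 69, 30, 88, 13, 15 and 185, with 1 for E11.5 against E10.5 and 409 (main 1854) for the sexes at E13.5. The mean of probe sets gave 110 and 224 for E12.5 males and females against E11.5 and 225 for the last step in females. For E11.5 against E10.5 (main 14), quantile normalization gave 29, median centring 22 and the filter on dim genes 9. For the change of the sex difference (main 2), the mean of probe sets, no trend, the replicate block and the 2 arrays left out gave 0 with limma, with 1365, 1396, 1422 and 1016 genes at an unadjusted p under 0.05.

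With 1 array left out the ranges were 51 to 1927 for E10.5 against E9.5 (lowest without E10.5 replicate 2, highest without E10.5 replicate 1), 1 to 39 for E11.5 against E10.5, 2 to 244 and 23 to 602 for E12.5 males and females against E11.5, 16 to 637 and 0 to 725 for the last step in males and females (0 without E12.5 female replicate 2, limma, 1722 at an unadjusted p under 0.05), 93 to 619 and 912 to 2406 for the sexes at E12.5 and E13.5, and 0 to 4 for the change of the sex difference. The cause of these shifts was not tested. With quantile normalization the share of passing genes that were higher was 60.9% for E12.5 females against E11.5 (main 76.0%), 54.0% for the last step in males (main 65.1%) and 38.1% for males at E12.5 (main 27.8%). Of 67 calls of list genes, 21 held without each array compared.

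Same-numbered arrays shared deviations in some pairs of groups and not in others. Their deviations correlated over 0.1 in 8 of 21 pairs of groups, and r ran from -0.47 to 0.61. With the replicate number as a block 171 genes passed for E10.5 against E9.5, 12 for E11.5 against E10.5, 387 for the sexes at E12.5 and 1892 at E13.5. Of the 8 genes 3, 1, 2 and 5 passed there. Zfp541, Tcf24 and, for E10.5 against E9.5, Taf7l fell under the filter on dim genes.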
